A study of Mus musculus with 4 samples.

Results

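The innate cytokine genes Tnf, Il12b, Il10, Il6, Il18 and Tgfb1, with the IL-18 inhibitor gene Il18bp, were followed across the immune cells of liver metastatic tumours formed by MC38, a mouse colon carcinoma line. The genes were chosen by symbol and not by their values, and all 7 of 7 were present among the 32285 genes of the deposited matrices. Dissociated tumours had been selected on magnetic beads for CD45, the leukocyte surface phosphatase encoded by Ptprc, and profiled with droplet-based 3′ single-cell RNA sequencing. The library HFD_shYap came from C57BL/6J mice given a high-fat diet and carrying tumours of shYap-MC38, a derivative whose label is the usual notation for a short hairpin RNA against Yap, and HFD_WT from such mice carrying tumours of WT-MC38. LFD_shYap and LFD_WT were the same tumour lines in mice whose sample titles give a low-fat diet. All hosts were labelled WT, the number of mice behind each library and their age were not given in the sources used here, and each pairing of a diet with a tumour line had 1 library. Differences between libraries therefore measure the spread between these samples, which may be technical.

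Tumour necrosis factor (TNF) and interleukin-6 (IL-6) are early signals of inflammation that myeloid cells release when sensors of microbes or damage switch on NF-κB. IL-12, whose p40 chain is encoded by Il12b, and IL-18 act together on T and NK cells to raise interferon-γ, while IL-10, transforming growth factor β (TGF-β) and the IL-18 binding protein hold such responses back. In tumours of the liver, resident Kupffer cells, recruited monocytes, macrophages, neutrophils and dendritic cells are all possible sources of these signals.

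Cell filters kept 7281, 10865, 9013 and 11084 cells of HFD_shYap, HFD_WT, LFD_shYap and LFD_WT, 38243 of 50062 barcodes in all. Clusters were named by markers, so that each name below stands for likeness to a cell type, and the members themselves were left out of the genes used for clustering. Mononuclear phagocytes made up 59.3% to 67.4% of kept cells and held 63866157 to 83099235 UMIs (unique molecular identifiers, each a counted RNA molecule) per library. Neutrophils were far shallower, with 349 to 972 cells per library at a median of 1674 to 2171 UMIs per cell. Cells left unnamed made up 8.19%, 7.89%, 8.08% and 17.2% of kept cells in HFD_shYap, HFD_WT, LFD_shYap and LFD_WT. Their medians were 1101.5, 1334, 1008 and 1118 UMIs, and they took no part in the levels of named classes or in the tests. Among them was a shallow cluster with phagocyte markers, of 255, 312, 285 and 1177 cells in the same order. The library labelled HFD_shYap stood apart in its sex-linked RNA. It had 31319 UMIs of Xist, the RNA of the inactive X chromosome, against 8 in HFD_WT, 3 in LFD_shYap and 2 in LFD_WT, and 1365 of its phagocytes had Xist UMIs without Y-linked ones while 2162 had Y-linked UMIs without Xist. Yap1, the gene that such a hairpin would target, was at 21.6, 16.8, 17.7 and 20.2 CPM (counts-per-million of the UMIs of those cells) in the Ptprc-low cells of HFD_shYap, HFD_WT, LFD_shYap and LFD_WT. The label shYap was thus not matched by lower Yap1 RNA in these cells of HFD_shYap. Finer clustering split such cells into a tumour-like cluster (Tm4sf1, Msln and Hmga2), with 87, 544, 488 and 571 cells, and a collagen-rich one, with 54, 165, 317 and 239. Yap1 was not measured in the tumour-like cells alone, so these values cannot show whether the hairpin lowered it there. The label of LFD_shYap is in conflict over diet, its title giving low-fat and its treatment field high-fat; the title was used. Between 33 and 63 barcode sequences were shared by any pair of libraries, at most 0.459% of a library.

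Each cytokine had its own pattern over the cell classes. In CPM averaged over the 4 libraries, Tnf, which encodes the ligand TNF, was 96.6 ± 47.9 in neutrophils and 57.9 ± 20.1 in phagocytes (SD, n = 4 libraries), 2 neighbours whose ranges overlapped. Next came dendritic type 2 cells at 25.04 ± 16.6 CPM, and T cells were at 10.9 ± 3.03 CPM. Il12b stood almost alone in mature dendritic cells at 1204 ± 219 CPM, against 54.8 ± 32.2 in dendritic type 1 and 26.9 ± 24.4 in dendritic type 2 cells, and 0 UMIs in the neutrophils of all 4 libraries. Il10 was highest on average in phagocytes at 16.1 ± 3.95 CPM. B cells, at 11.2 ± 9.13 CPM from 17 UMIs, overlapped phagocytes, as did plasmacytoid dendritic cells with only 3 UMIs. Il18 was highest on average in phagocytes as well, at 39.7 ± 6.54 CPM. Il18 in fibroblasts, at 33.99 ± 18.99 CPM, and in dendritic type 1 cells, at 31.98 ± 7.61 CPM, did not differ from phagocytes beyond this spread. Il18bp was at 42.2 ± 8.26 CPM in phagocytes and 39.2 ± 9.59 CPM in mature dendritic cells, which overlapped. Il6 had its highest mean, 82.8 ± 48.0 CPM, in a cluster of only 9 to 36 fibroblasts per library, followed by mature dendritic cells at 33.7 ± 20.8 CPM. Tgfb1 was the evenest, from 42.1 ± 7.66 CPM in Ptprc-low cells to 269 ± 49.9 CPM in NK or ILC1 cells, with phagocytes at 230 ± 18.3, dendritic type 2 cells at 219.8 ± 29 and B cells at 217 ± 53.8 CPM overlapping one another.

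**Figure D1:**
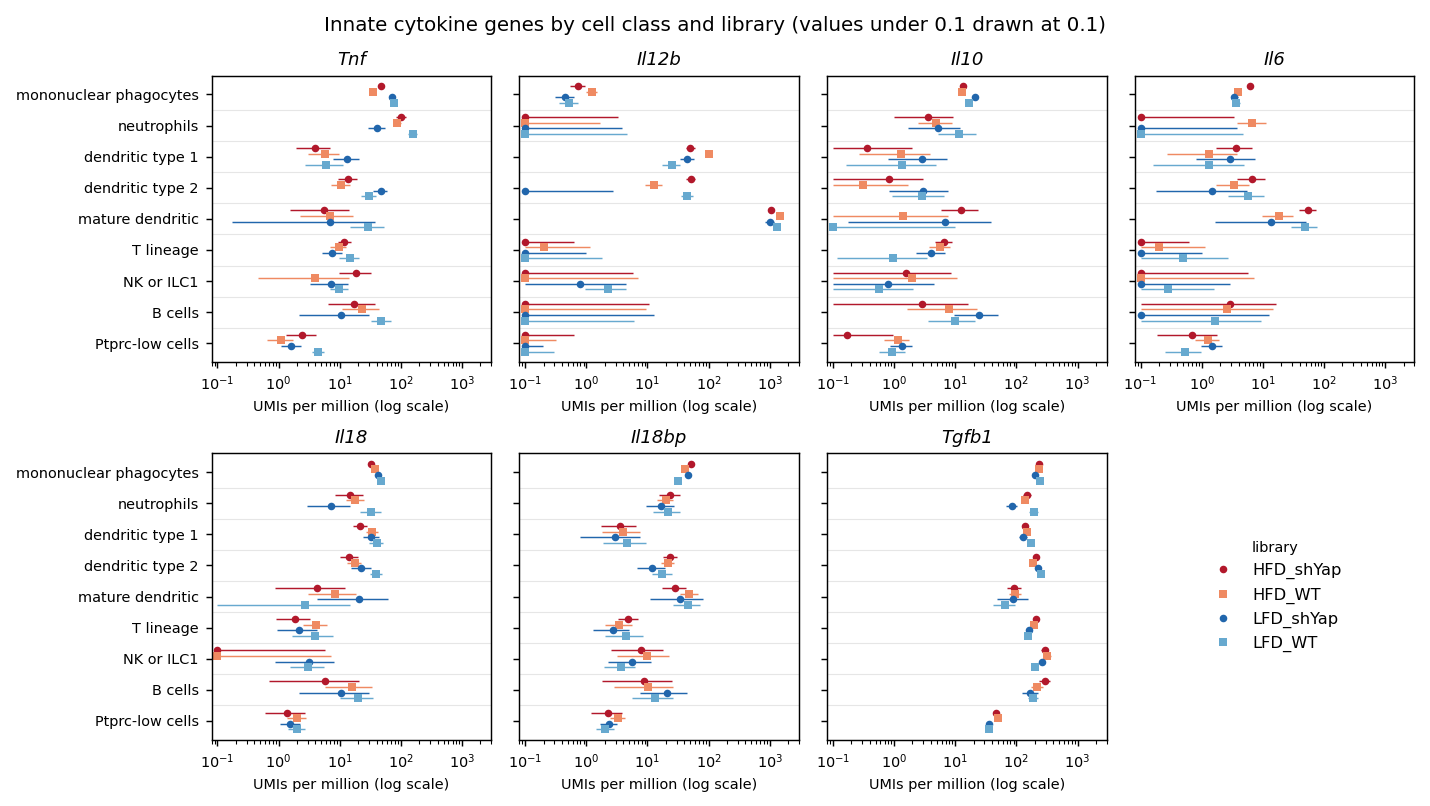
CPM of each cytokine gene (log axis) in 9 cell classes, 1 point per library with its exact 95% Poisson interval, and values under 0.1 drawn at 0.1. Tnf lies highest in neutrophils and phagocytes, Il12b in mature dendritic cells at 1005 to 1453 CPM, and Tgfb1 between 64.3 and 323 CPM in the leukocyte classes.

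Phagocytes held most of the RNA of every member but Il12b, and they were also most of the kept cells. They made up 64.1%, 61.3%, 67.4% and 59.3% of kept cells in HFD_shYap, HFD_WT, LFD_shYap and LFD_WT. Their share of the UMIs of all genes was not computed. The shares below therefore do not show how far a member exceeded what cell number and depth alone would give. Of all Tnf UMIs, 90.3%, 88.6%, 95.4% and 88.9% lay in phagocytes of HFD_shYap, HFD_WT, LFD_shYap and LFD_WT. The share was 80.7% to 85.3% for Tgfb1 and 72.5% to 85.3% for Il6. For Il12b it was 4.57%, 7.06%, 13.6% and 5.06% in the same order, and mature dendritic cells, at 21 to 84 cells per library, held 70.3%, 72.4%, 60.3% and 75.8%.

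The members also differed in how their RNA was spread among phagocytes. The 1% of phagocytes with most UMIs of a gene held 83.5% to 92.8% of all Il6 UMIs and 34.1% to 40.1% of Il10 UMIs, depending on the library. For Tnf this share was 15.3%, 23.4%, 19.7% and 13.8% in HFD_shYap, HFD_WT, LFD_shYap and LFD_WT, and for Tgfb1 it was 5.35% to 6.68%. Il6 RNA in phagocytes thus came from a small set of cells, between 83 and 106 per library, whereas Tgfb1 had a UMI in 76.4% to 84.8% of phagocytes. With every cell thinned to 2000 UMIs, Tgfb1 was found in 37.9%, 36.4%, 31.6% and 37.7% of phagocytes, against 9.02%, 10.8%, 5.95% and 6.38% of the Ptprc-low cells at the same depth.

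The promoters of Tnf, Il6 and Il12b, chosen after their values were seen, are shown because these 3 members were highest in different cell classes. Each is given as the 250 bases before the start of transcription in RefSeq (GRCm38.p6). The bases run 5′ to 3′ on the coding strand, which reads as the RNA does. Tnf lies at chr17:35202008-35202257 on the minus strand, Il6 at chr5:30012864-30013113 on the plus strand and Il12b at chr11:44399813-44400062 on the plus strand. Capitals mark matches to the motifs searched.
Tnf: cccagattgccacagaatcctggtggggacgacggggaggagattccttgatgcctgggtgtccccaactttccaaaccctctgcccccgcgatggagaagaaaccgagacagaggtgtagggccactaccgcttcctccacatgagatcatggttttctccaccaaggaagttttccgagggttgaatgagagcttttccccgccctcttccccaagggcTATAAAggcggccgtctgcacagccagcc
Il6: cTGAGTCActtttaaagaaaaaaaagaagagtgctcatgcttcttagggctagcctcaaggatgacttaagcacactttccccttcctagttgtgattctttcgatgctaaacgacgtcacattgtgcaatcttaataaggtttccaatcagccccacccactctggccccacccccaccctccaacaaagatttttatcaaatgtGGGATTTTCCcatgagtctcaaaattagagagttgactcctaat
Il12b: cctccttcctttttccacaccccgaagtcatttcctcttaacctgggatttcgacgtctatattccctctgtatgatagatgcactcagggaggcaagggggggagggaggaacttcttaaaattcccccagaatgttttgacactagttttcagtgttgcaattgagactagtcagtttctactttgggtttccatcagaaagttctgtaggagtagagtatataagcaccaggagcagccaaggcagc
The TATA motif TATAAA, searched on the coding strand, matched in Tnf at -29 to -24 from the start and in 7.59% of all 32851 mouse promoters of this length. The NF-κB motif, searched on both strands, matched in Il6 at -44 to -35 and in 7.25% of promoters. The AP-1 motif, TGAGTCA or TGACTCA on both strands, matched in Il6 at -249 to -243 and in 4.46% of promoters. None of the 3 motifs matched in the Il12b window. A match is a stretch of letters and was not tested as a binding site.

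Tnf (ENSMUSG00000024401, GRCm38 chromosome 17, 35199381 to 35202007, minus strand) had the lowest p of the members for diet in phagocytes, though Il12b, at a far lower level, had a fold change of similar size in the other direction. It stood at 46.4 CPM in HFD_shYap and 35.6 CPM in HFD_WT, against 71.6 CPM in LFD_shYap and 77.9 CPM in LFD_WT. These levels rest on 3087, 2959, 5375 and 4975 UMIs. Both high-fat libraries were therefore lower than both low-fat libraries, and the groups did not overlap. With 2 libraries per diet such a separation can arise from the order of the libraries alone. The share of all tested genes without overlap was not counted, here or for the genes below. Compared 1 library against 1, the log2 ratio of HFD_shYap over LFD_shYap was -0.62 (95% counting interval -0.69 to -0.56) and that of HFD_WT over LFD_WT -1.13 (-1.20 to -1.06). Intervals of this kind hold the error of counting molecules and no spread between animals.

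Across all 4 libraries the diet difference of Tnf did not pass the threshold. edgeR's quasi-likelihood test gave a log2 fold change of -0.93 (SE 0.16, n = 2 libraries per diet), an unadjusted p of 0.00057 and an adjusted p of 0.115. In this test 25 of 14233 genes, or 0.176%, were called at an adjusted p of 0.05, and 0 of the 7 members. All 7 members passed the filter on low counts in phagocytes, and 4 of them had an unadjusted p under 0.05, as had 859 or 6.04% of all genes tested. The call depended on the settings: over 14 alternatives the Tnf fold change stayed negative, from -1.08 to -0.55, while its adjusted p ran from 0.000601 to 0.981 and was under the threshold in 6. DESeq2 gave an adjusted p of 0.000601, and leaving out LFD_WT or LFD_shYap gave an adjusted p of 0.01405 or 0.0183. With the diet of LFD_shYap taken from its treatment field the adjusted p was 0.981.

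Within the library labelled HFD_shYap, Tnf stood at 57.4 CPM (exact 95% Poisson interval 54.1 to 60.9) in phagocytes with Xist UMIs only and at 39.2 CPM (37.1 to 41.4) in those with Y-linked UMIs only. Both values lay under those of the low-fat libraries. With HFD_shYap represented by its Y-bearing cells the fold change was -1.07 with an adjusted p of 0.02004, and with its Xist-bearing cells -0.74 with an adjusted p of 0.189. Thinned to 2000 UMIs per cell, 7.50%, 5.80%, 9.30% and 13.2% of phagocytes of HFD_shYap, HFD_WT, LFD_shYap and LFD_WT had a Tnf UMI, in the same order as the levels. Without thinning the shares were 31.5%, 22.8%, 33% and 35.9%. In Ptprc-low cells at the thinned depth the shares were 0%, 0.575%, 0.506% and 1.63%, the 0 coming from 133 cells and allowing up to 2.26%.

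Phagocytes fell into 10 states, named here by leading genes. Tnf was highest in 2 of them in HFD_shYap, HFD_WT and LFD_shYap, and in LFD_WT in the first of these and in Kupffer-like cells. In macrophages led by Fbxo32, Hspa1a and Jun it was 78.6, 115, 105 and 173 CPM in HFD_shYap, HFD_WT, LFD_shYap and LFD_WT, and in macrophages led by Lyve1 and Cd163 97.9, 79.5, 116 and 110 CPM. In macrophages led by MHC class II genes and Cxcl9 it was 27.9, 21.8, 33.1 and 38.8 CPM, and in those led by Fcrls and Stab1 29.1, 24.7, 22.8 and 36.97 CPM. Among states with at least 50 cells in a library, the Fbxo32 state also had the highest summed level of 14 dissociation stress genes in all 4 libraries. It was at 11916.5, 11872, 8375 and 12664 CPM. Kupffer-like cells, with 24 cells in HFD_WT and 42 in LFD_WT, were not ranked in those libraries. The part of the stress genes in the Tnf level of the Fbxo32 state was not tested. Stress genes were not left out of the genes used for clustering, and this state was led by genes of that kind, Hspa1a and Jun. Its rank on the stress list was therefore set in part by how the state was defined. Over all phagocytes the stress list was at 7782 and 6530 CPM in the high-fat libraries HFD_shYap and HFD_WT and at 6661 and 7890 CPM in LFD_shYap and LFD_WT, which overlapped between diets.

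**Figure D2:**
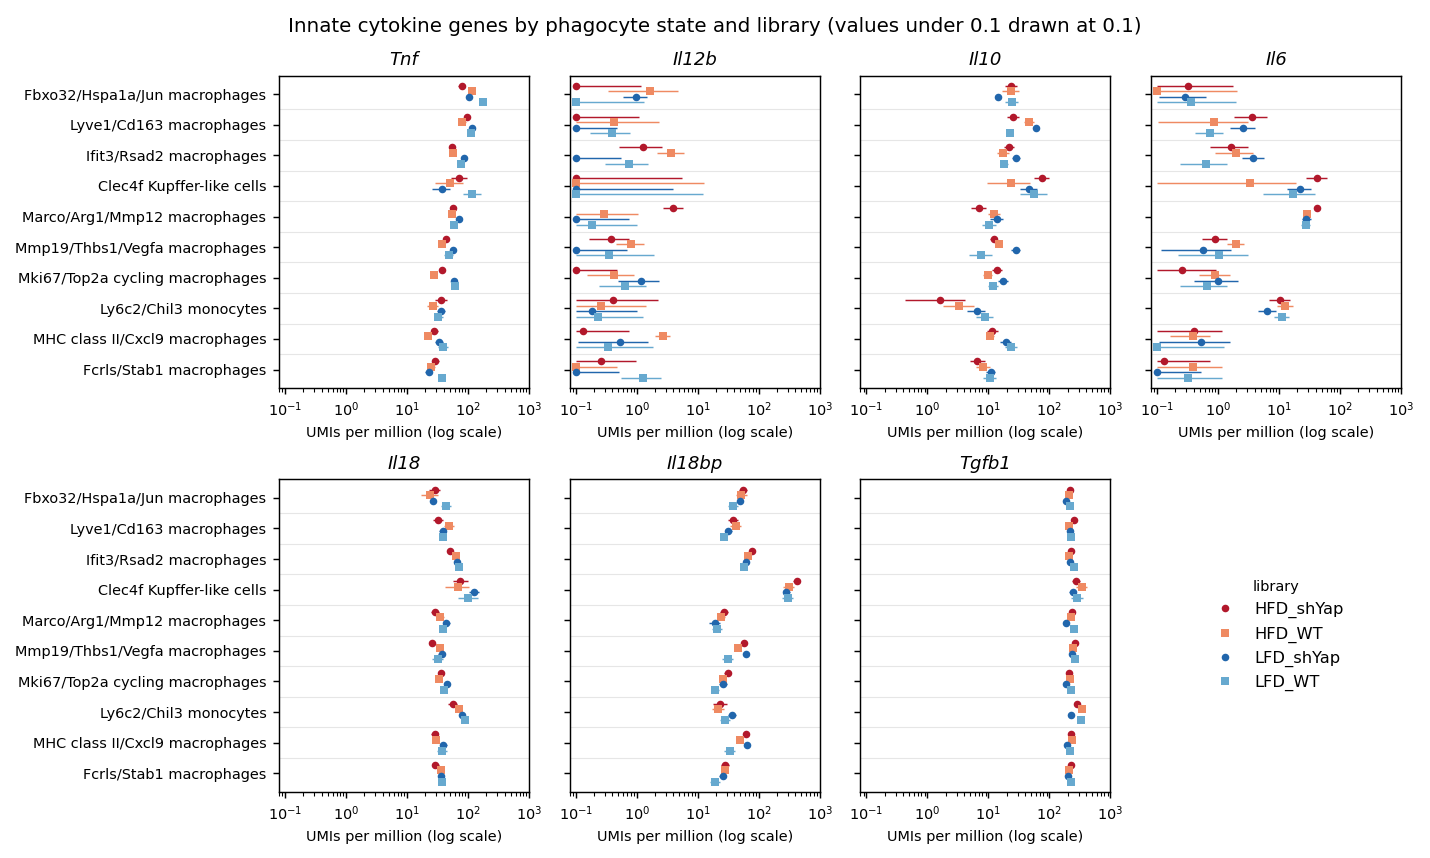
CPM of each cytokine gene (log axis) in the 10 phagocyte states, 1 point per library with its exact 95% Poisson interval, and values under 0.1 drawn at 0.1. Tnf is high in the Fbxo32 and Lyve1 states, Il6 in the Marco/Arg1/Mmp12 state, monocytes and Kupffer-like cells, and Il18bp in Kupffer-like cells.

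The states were not equally common in the libraries. The Lyve1/Cd163 state made up 4.26% of phagocytes in HFD_shYap and 2.46% in HFD_WT, against 8.65% in LFD_shYap and 27.3% in LFD_WT. The Fbxo32 state made up 5.93% and 3.05% in the high-fat libraries, against 28.8% in LFD_shYap and 6.42% in LFD_WT. The MHC class II/Cxcl9 state, low in Tnf, made up 14.4% and 30.4%, against 9.38% and 6.94%. The 2 states richest in Tnf were thus less common in both high-fat libraries. The states low in Tnf did not shift together: the MHC class II/Cxcl9 state was more common there, whereas the Fcrls/Stab1 state made up 15.1% and 12.7%, against 21.4% and 12.9%, and monocytes, with Tnf at 32.7 ± 4.67 CPM (SD, n = 4 libraries), made up 5.57% and 6.80%, against 8.67% and 9.86%.

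Within states Tnf was still mostly lower in the high-fat library of each pair. All states of a pair come from the same libraries, so a shift of a whole library moves them together. Counts of states are therefore not replicates, here or for the genes below. In HFD_WT against LFD_WT it was lower in 9 of 9 states with at least 50 cells in both libraries, with 7 counting intervals wholly below 0. In HFD_shYap against LFD_shYap it was lower in 8 of 10 states, with 6 intervals below 0 and 2 above. With every state weighted equally the log2 ratio was -0.52 for HFD_WT over LFD_WT and -0.22 for HFD_shYap over LFD_shYap, less than the pooled values of -1.13 and -0.62. Without the Lyve1/Cd163 and Fbxo32 states, each of which drew over 60% of its cells from 1 library, the fold change over 4 libraries was -0.55 with an adjusted p of 0.169. The cycling macrophages led by Mki67 and Top2a had 37.2 and 27.8 CPM in HFD_shYap and HFD_WT, against 59.96 and 60.4 CPM in LFD_shYap and LFD_WT. Kupffer-like cells went opposite ways in the pairs, with 72.0 CPM in HFD_shYap against 36.7 in LFD_shYap, and 50.6 CPM in HFD_WT against 117 in LFD_WT, from 24 to 84 cells.

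**Figure D3:**
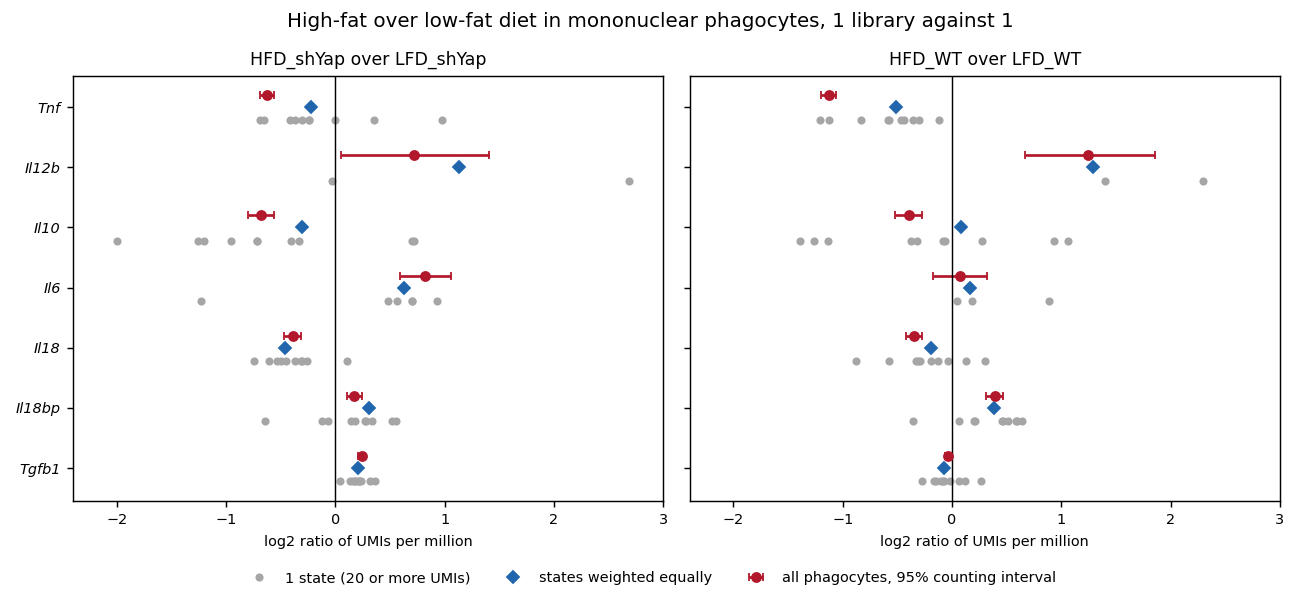
Log2 ratios of CPM, high-fat over low-fat, in phagocytes with shYap tumours (left) and WT tumours (right); red points are all phagocytes with 95% counting intervals, blue diamonds weight states equally, and grey points are single states with at least 20 UMIs over the pair. For Tnf both red points lie below 0, at -0.62 and -1.13, and both diamonds lie nearer to 0, at -0.22 and -0.52.

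Tumour line gave no call for Tnf in phagocytes. The shYap libraries had 46.4 and 71.6 CPM (HFD_shYap and LFD_shYap) and the WT libraries 35.6 and 77.9 CPM (HFD_WT and LFD_WT), so the groups overlapped. The log2 fold change was 0.12 (SE 0.16, edgeR adjusted p = 0.946), in a test that called 6 of 14233 genes, or 0.0422%, and 0 of 7 members. The pairs pointed in opposite ways, with a log2 ratio of 0.38 (0.31 to 0.46) for HFD_shYap over HFD_WT and -0.12 (-0.18 to -0.07) for LFD_shYap over LFD_WT. These pairs share their libraries with the diet pairs above.

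In neutrophils Tnf followed neither factor. It was at 102 CPM in HFD_shYap, 87.6 in HFD_WT, 40.4 in LFD_shYap and 157 in LFD_WT, from 112, 195, 39 and 124 UMIs. The low-fat libraries held both the lowest and the highest value, so the diets overlapped. edgeR gave a diet fold change of 0.14 (log2, SE 0.40, adjusted p = 0.925) and a tumour line fold change of -0.68 (log2, SE 0.40, adjusted p = 0.663). Of the 7 members 4 passed the filter on low counts in neutrophils, and 0 of these were called for diet, where 26 of 6507 genes or 0.4% were, or for tumour line, where 0 genes or 0% were. For tumour line 546 genes had an unadjusted p under 0.05, and DESeq2 also called 0. The Tnf diet fold change became 1.04 without LFD_WT and -0.61 without LFD_shYap.

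Other measures of the neutrophils also differed between libraries, none of those below in the same order as Tnf over all 4, and their part in its level was not tested. LFD_shYap held 9.46% of its neutrophils in a cluster led by Camp and Ngp, genes of immature neutrophil granules, against 0.412% to 1.17% in the other 3 libraries. Without that cluster Tnf was 103, 87.8, 49.0 and 162 CPM in HFD_shYap, HFD_WT, LFD_shYap and LFD_WT. The stress list was at 20514, 13711, 7648 and 13778 CPM in the neutrophils, lowest in LFD_shYap as Tnf was. Phagocyte markers summed to 6662, 14186, 13132 and 23924 CPM there, all 10 being detected. Neutrophils with a Tnf UMI had phagocyte markers at 6137, 17655, 11073 and 26705 CPM, against 6784, 13637, 13509 and 23275 CPM in those without.

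Other neutrophil members were sparse. Tgfb1 was at 150, 139, 83.8 and 193 CPM, with the same order of libraries as Tnf. Il18 had 16, 40, 7 and 26 UMIs and Il18bp 26, 44, 16 and 17 UMIs in HFD_shYap, HFD_WT, LFD_shYap and LFD_WT. Il6 had 15 UMIs in HFD_WT and 0 in the other libraries, and these came from 3 of the 972 neutrophils.

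In dendritic type 2 cells Tnf was at 13.5 CPM in HFD_shYap and 10.4 CPM in HFD_WT, against 46.4 CPM in LFD_shYap and 29.9 CPM in LFD_WT, from 33, 34, 62 and 53 UMIs. Both high-fat libraries were lower, as in phagocytes, with log2 ratios of -1.78 (-2.44 to -1.15) for HFD_shYap over LFD_shYap and -1.52 (-2.19 to -0.87) for HFD_WT over LFD_WT. In LFD_shYap 1 cell held 28 of the 62 UMIs.

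T cells as a whole carried little Tnf RNA in any library. The CD4 helper T cells among them had more, at 23.4, 18.6, 31.3 and 62.2 CPM in HFD_shYap, HFD_WT, LFD_shYap and LFD_WT, from only 15, 5, 3 and 4 UMIs. Over all T cells Tnf was at 11.9 CPM in HFD_shYap and 9.55 CPM in HFD_WT, against 7.60 CPM in LFD_shYap and 14.6 CPM in LFD_WT, from 28 to 71 UMIs. The diets overlapped, and edgeR gave a log2 fold change of -0.02 (SE 0.32, adjusted p = 0.996). With suspected doublets kept this became -0.95 with an adjusted p of 0.00149, so the value turned on how barcodes with a high doublet score were handled. Phagocyte markers in the T lineage were at 1806, 3283, 3342 and 5543 CPM in HFD_shYap, HFD_WT, LFD_shYap and LFD_WT after doublet removal. T sub-clusters that were shallow or led by macrophage or neutrophil genes had also been left out. These held 35, 74, 14 and 59 cells of HFD_shYap and 145, 163, 59 and 40 of HFD_WT. In LFD_shYap they held 33, 73, 42 and 41 cells, and in LFD_WT 27, 88, 204 and 30. The T lineage kept 771, 777, 490 and 310 cells in the same order of libraries.

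Il12b (ENSMUSG00000004296, GRCm38 chromosome 11, 44400063 to 44414033) encodes the p40 chain shared by IL-12 and IL-23. In mature dendritic cells, defined by Ccr7, Fscn1 and Ccl22 among other markers, it was at 1035 CPM in HFD_shYap and 1453 CPM in HFD_WT, against 1005 CPM in LFD_shYap and 1323 CPM in LFD_WT. The counts were 738, 1046, 146 and 494 UMIs from 74, 84, 21 and 66 cells. The diets overlapped, while both WT libraries lay above both shYap libraries. The log2 ratio was -0.49 (-0.63 to -0.35) for HFD_shYap over HFD_WT and -0.40 (-0.67 to -0.13) for LFD_shYap over LFD_WT, and 0.04 (-0.22 to 0.31) and 0.14 (-0.02 to 0.29) for the diet pairs with shYap and WT tumours. No test across libraries was made in this class, which had few cells. Phagocyte markers in these cells were at 2909, 9503, 21494 and 6572 CPM in HFD_shYap, HFD_WT, LFD_shYap and LFD_WT, highest in LFD_shYap with its 21 cells.

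A UMI of Il12b was found in 59.5%, 70.2%, 71.4% and 71.2% of mature dendritic cells without thinning, and in 49.2%, 62.8% and 68.4% of those of HFD_shYap, HFD_WT and LFD_WT thinned to 2000 UMIs. In T cells at that depth it was found in 0 of 291 to 725 cells per library, which allows shares of up to 0.414% to 1.03%. The share in mature dendritic cells moved with depth, to 65.5%, 66.2% and 81.8% at 4000 UMIs, so that a cell without a UMI was not shown to lack Il12b RNA. Cells without a UMI were shallower, at a median of 3912.5, 6281, 1803 and 2698 UMIs against 10964, 9228, 7465 and 6729 in cells with a UMI. The cell with most Il12b UMIs held 8.70% to 21.9% of the library's total in this class.

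Conventional dendritic cells had lower Il12b levels. Dendritic type 1 cells, the subset that presents antigen to CD8 T cells, stood at 49.8 CPM in HFD_shYap and 100 CPM in HFD_WT, against 44.3 CPM in LFD_shYap and 24.7 CPM in LFD_WT. Of these UMIs 1 cell held 89 of the 140 in HFD_shYap and 1 cell 88 of the 231 in HFD_WT, against at most 13 in LFD_shYap and in LFD_WT. Without the top cell of each library the levels were 18.3 and 62.5 CPM in HFD_shYap and HFD_WT, against 35.5 and 16.2 CPM in LFD_shYap and LFD_WT, so that the order of HFD_shYap and LFD_shYap rested on 1 cell. With all cells the pairs had log2 ratios of 0.17 (-0.27 to 0.63) for HFD_shYap over LFD_shYap and 2.02 (1.52 to 2.56) for HFD_WT over LFD_WT. In dendritic type 2 cells Il12b was at 50.7, 12.8, 0 and 44.0 CPM in HFD_shYap, HFD_WT, LFD_shYap and LFD_WT. The 124 UMIs of HFD_shYap came from 3 cells, so this level rested on very few cells.

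In phagocytes Il12b was at 0.722 CPM in HFD_shYap and 1.23 CPM in HFD_WT, against 0.440 CPM in LFD_shYap and 0.517 CPM in LFD_WT. The counts were 48, 102, 33 and 33 UMIs, in 11, 33, 8 and 16 cells, and the top cell of each library held 25, 42, 18 and 7 of them. The diets did not overlap with all cells, but without these top cells the levels were 0.346 and 0.722 CPM in HFD_shYap and HFD_WT, against 0.1998 and 0.407 CPM in LFD_shYap and LFD_WT, and overlapped. With all cells edgeR gave a log2 fold change of 0.94 (SE 0.37, adjusted p = 0.754). Phagocytes with an Il12b UMI had mature dendritic markers at 196, 97.4, 55.7 and 67.5 CPM in HFD_shYap, HFD_WT, LFD_shYap and LFD_WT, against 35.5, 40.2, 28.3 and 35.9 CPM in those without. In the mature dendritic class itself these markers were at 6205 to 7975 CPM.

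Il6 (ENSMUSG00000025746, GRCm38 chromosome 5, 30013114 to 30019981), which encodes the acute-phase cytokine IL-6, was found mainly in 3 of the phagocyte states. In macrophages led by Marco, Arg1 and Mmp12 it was at 41.2 CPM in HFD_shYap and 28.3 CPM in HFD_WT, against 27.8 CPM in LFD_shYap and 27.4 CPM in LFD_WT. In Ly6c2/Chil3 monocytes it was at 10.4, 12.6, 6.42 and 11.1 CPM, and in Kupffer-like cells at 42.0, 3.37, 22.04 and 16.7 CPM in the same order, the last from 1 to 28 UMIs. In the Fbxo32 state, which was high in Tnf, and in the Fcrls state, Il6 did not exceed 0.390 CPM.

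Over all phagocytes Il6 was at 6.03 CPM in HFD_shYap and 3.87 CPM in HFD_WT, against 3.41 CPM in LFD_shYap and 3.68 CPM in LFD_WT. The diets did not overlap, though HFD_WT and LFD_WT were close. The log2 ratio was 0.82 (0.59 to 1.06) for HFD_shYap over LFD_shYap and 0.07 (-0.17 to 0.32) for HFD_WT over LFD_WT, and edgeR gave 0.40 (SE 0.23, adjusted p = 1.0). The excess in HFD_shYap lay with its Xist-bearing phagocytes, which had 11.4 CPM (9.94 to 12.97) against 3.13 CPM (2.56 to 3.79) in its Y-bearing phagocytes. With the Y-bearing cells alone standing for HFD_shYap the diet fold change was -0.09.

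In mature dendritic cells Il6 was at 54.7, 18.1, 13.8 and 48.2 CPM in HFD_shYap, HFD_WT, LFD_shYap and LFD_WT, from 39, 13, 2 and 18 UMIs. The diets overlapped. The highest level of Il6 in any class was that of the fibroblasts, at 133 CPM in HFD_shYap and 72.1 CPM in HFD_WT, against 21.04 CPM in LFD_shYap and 105 CPM in LFD_WT, from 11, 36, 13 and 9 cells. In T cells Il6 had at most 1 UMI per library.

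Il18 (ENSMUSG00000039217, GRCm38 chromosome 9, 50554827 to 50581840) encodes IL-18, which is made as a precursor and cut by caspase-1. In phagocytes it stood at 32.1 CPM in HFD_shYap and 37.2 CPM in HFD_WT, against 42.2 CPM in LFD_shYap and 47.3 CPM in LFD_WT. Both high-fat libraries were lower than both low-fat libraries. The log2 ratios were similar, at -0.39 (-0.47 to -0.31) for HFD_shYap over LFD_shYap and -0.35 (-0.42 to -0.28) for HFD_WT over LFD_WT, but edgeR gave -0.42 (SE 0.15) with an adjusted p of 0.667. Il18 was lower in 9 of 10 states in the shYap pair and in 7 of 9 in the WT pair, with 8 and 4 intervals wholly below 0. With states weighted equally the ratios were -0.46 and -0.19.

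Il18 was highest in Kupffer-like cells, at 75.02, 67.5, 126 and 100 CPM in HFD_shYap, HFD_WT, LFD_shYap and LFD_WT, and in monocytes, at 56.2, 69.9, 79.2 and 87.6 CPM. Macrophages led by the interferon-induced genes Ifit3 and Rsad2 followed at 51.0, 63.4, 65.7 and 72.3 CPM. In these 3 states, as over all phagocytes, both high-fat libraries lay below both low-fat ones. Dendritic type 1 cells had 21.7, 33.4, 32.7 and 40.1 CPM, and T cells had 1.85, 4.07, 2.17 and 3.90 CPM, near the 1.38 to 1.996 CPM of Ptprc-low cells.

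Il18bp (ENSMUSG00000070427, GRCm38 chromosome 7, 102014885 to 102018690, minus strand) encodes the secreted protein that binds IL-18 and blocks it. In phagocytes it stood at 51.0 CPM in HFD_shYap and 41.2 CPM in HFD_WT, against 45.3 CPM in LFD_shYap and 31.4 CPM in LFD_WT. The diets overlapped, while the shYap libraries both lay above the WT libraries. edgeR gave a diet fold change of 0.23 (log2, SE 0.17, adjusted p = 1.0) and a tumour line fold change of 0.41 (log2, SE 0.17, unadjusted p 0.0420, adjusted p = 0.859). The log2 ratio of shYap over WT tumours was 0.31 (0.24 to 0.38) under high-fat and 0.53 (0.45 to 0.61) under low-fat diet, and Il18bp was higher in 8 of 9 states in each pair.

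Kupffer-like cells carried much more Il18bp than any other state, at 417, 310, 284 and 298 CPM in HFD_shYap, HFD_WT, LFD_shYap and LFD_WT. The Ifit3/Rsad2 state was next in HFD_shYap, HFD_WT and LFD_WT, at 78.7, 66.4 and 57.9 CPM, and had 62.4 CPM in LFD_shYap, close to the 63.9 CPM of its MHC class II/Cxcl9 state. Monocytes, which were high in Il18, had only 23.3, 21.8, 36.3 and 27.97 CPM of Il18bp. Kupffer-like and Ifit3/Rsad2 cells were thus high for both the cytokine and its inhibitor, and monocytes for the cytokine.

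Il10 (ENSMUSG00000016529, GRCm38 chromosome 1, 131019845 to 131024974) encodes the anti-inflammatory cytokine IL-10. In phagocytes it stood at 13.4 CPM in HFD_shYap and 12.8 CPM in HFD_WT, against 21.4 CPM in LFD_shYap and 16.8 CPM in LFD_WT. Both high-fat libraries were lower than both low-fat libraries. The log2 ratio was -0.68 (-0.80 to -0.56) for HFD_shYap over LFD_shYap and -0.40 (-0.52 to -0.27) for HFD_WT over LFD_WT. edgeR gave -0.59 (SE 0.17) with an adjusted p of 0.480, and with LFD_WT left out -0.80 with an adjusted p of 0.0316.

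Weighting the states equally changed the sign of 1 Il10 ratio. The log2 ratio was then 0.08 for HFD_WT over LFD_WT, opposite in sign to the pooled value, and -0.31 for HFD_shYap over LFD_shYap. Il10 was lower in 8 of 10 states in the shYap pair, but in 6 of 9 in the WT pair, where 2 intervals lay above 0 and 2 below. In Lyve1/Cd163 macrophages it was at 25.4, 46.5, 61.0 and 22.3 CPM in HFD_shYap, HFD_WT, LFD_shYap and LFD_WT, so that the diet difference had opposite signs with the 2 tumour lines. Kupffer-like cells had 75.02, 23.6, 46.2 and 56.8 CPM, and monocytes 1.60, 3.34, 6.42 and 8.78 CPM, the least of all states except in LFD_WT, where the Mmp19/Thbs1/Vegfa state had 7.70 CPM.

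In T cells Il10 ran the other way. It was at 6.54 CPM in HFD_shYap and 5.69 CPM in HFD_WT, against 4.07 CPM in LFD_shYap and 0.974 CPM in LFD_WT. The counts were only 39, 28, 15 and 2 UMIs, in 20, 16, 10 and 2 cells, and the diets did not overlap. edgeR gave a log2 fold change of 1.10 (SE 0.48) with an adjusted p of 0.440, in a test that called 76 of 10287 genes or 0.739%. Of the members 5 passed the filter in T cells, and 0 were called for diet or for tumour line, where 56 genes or 0.544% were. Regulatory T cells had 48.0, 54.9, 34.7 and 7.85 CPM in HFD_shYap, HFD_WT, LFD_shYap and LFD_WT, from 20, 20, 4 and 1 UMIs. T cells with an Il10 UMI had regulatory T markers such as Foxp3 and Il2ra at 3632, 4162, 1893 and 2363 CPM, against 1284, 1363, 986 and 1145 CPM in T cells without. Their phagocyte markers, at 1921 and 3971 CPM in HFD_shYap and HFD_WT and 3316 and 6050 CPM in LFD_shYap and LFD_WT, were close to those of the other T cells at 1803, 3267, 3342 and 5540 CPM.

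Tgfb1 (ENSMUSG00000002603, GRCm38 chromosome 7, 25687002 to 25705077) encodes TGF-β1, which restrains T cells and drives matrix production. In phagocytes it stood at 239 CPM in HFD_shYap and 235 CPM in HFD_WT, against 202 CPM in LFD_shYap and 241 CPM in LFD_WT. The diets overlapped, with LFD_shYap apart as the lowest. edgeR gave a diet fold change of 0.05 (log2, SE 0.16, adjusted p = 1.0) and a tumour line fold change of -0.12 (log2, SE 0.16, adjusted p = 0.949). With 15189 to 19567 UMIs per library counting error was small: the log2 ratio was 0.24 (0.21 to 0.27) for HFD_shYap over LFD_shYap and -0.04 (-0.07 to -0.01) for HFD_WT over LFD_WT. LFD_shYap was below LFD_WT in 9 of 9 states. Monocytes had 287, 345, 222 and 330 CPM and Kupffer-like cells 273, 341, 240 and 284 CPM in HFD_shYap, HFD_WT, LFD_shYap and LFD_WT, and the other states lay between 185 and 261 CPM.

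In T cells Tgfb1 was at 208 CPM in HFD_shYap and 195 CPM in HFD_WT, against 159 CPM in LFD_shYap and 156 CPM in LFD_WT. The diets did not overlap, and both ratios were alike, at 0.39 (0.24 to 0.53) with shYap and 0.32 (0.14 to 0.51) with WT tumours on the log2 scale. edgeR gave 0.29 (SE 0.17, adjusted p = 0.669). In mature dendritic cells Tgfb1 was lowest on average among the leukocyte classes, at 92.6, 95.9, 89.5 and 64.3 CPM.

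The receptors of these cytokines were measured in phagocytes, neutrophils and T cells, as background for which of these could receive each signal. Their levels were not taken in NK or ILC1, dendritic or B cells. The TNF receptor genes Tnfrsf1a and Tnfrsf1b were broad, Tnfrsf1a at 149, 127, 142 and 137 CPM in phagocytes and at 416, 231, 313 and 346 CPM in neutrophils of HFD_shYap, HFD_WT, LFD_shYap and LFD_WT. In T cells Tnfrsf1b was at 179, 142, 137 and 98.9 CPM. Il12rb2, the signalling chain of the IL-12 receptor, was at 49.1, 35.8, 38.3 and 23.9 CPM in T cells and at most 0.902 CPM in phagocytes. Il18r1 was at 92.1, 62.4, 60.01 and 46.8 CPM in T cells. Among the lineages measured, Il18rap, its partner chain, was highest in neutrophils at 269, 178, 176 and 121 CPM. Il10ra was at 55.5, 45.5, 48.5 and 37.4 CPM in phagocytes. Il6ra was at 109, 63.6, 96.3 and 71.2 CPM in phagocytes, where both shYap libraries lay above both WT libraries (log2 0.60, edgeR adjusted p = 0.721). Tgfbr2 was at 115, 95.7, 95.8 and 137 CPM in phagocytes and 110, 88.0, 74.1 and 78.9 CPM in T cells.

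**Figure D4:**
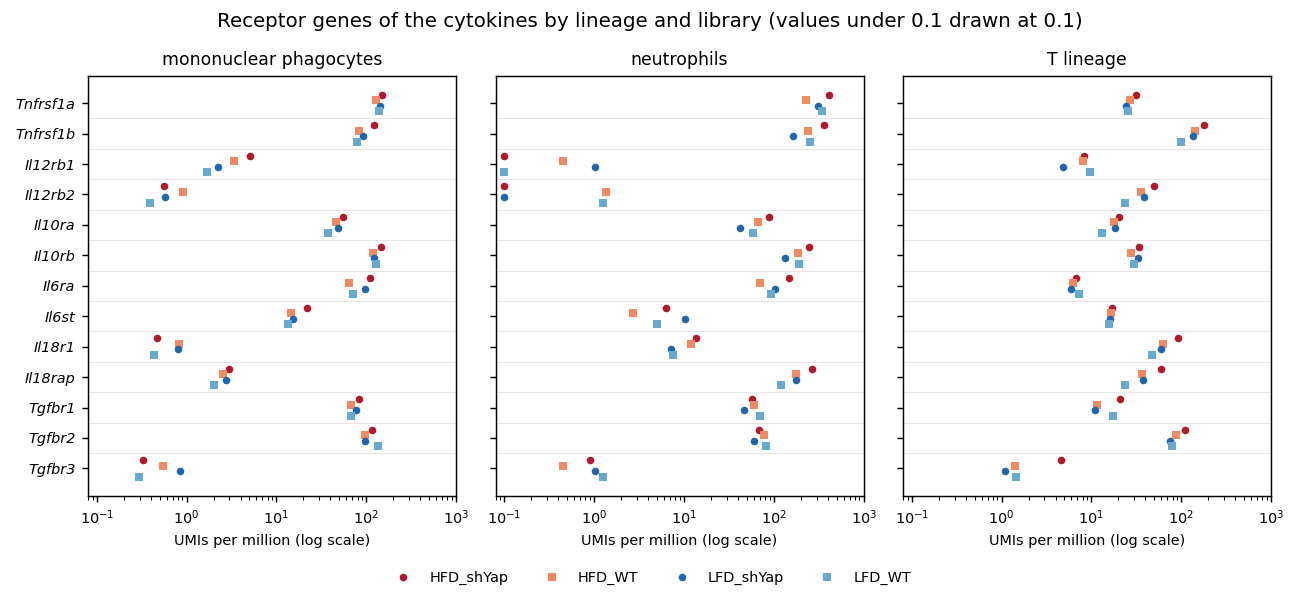
CPM of 13 receptor genes (log axis) in phagocytes, neutrophils and T cells, 1 point per library, values under 0.1 drawn at 0.1. Il12rb2 and Il18r1 are high in T cells and under 1 CPM in phagocytes, and Il18rap is highest in neutrophils.

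Of the 13 receptors, 13 passed the filter in phagocytes, 9 in neutrophils and 12 in T cells, and 0 of these were called for diet or tumour line. In phagocytes the median log2 fold change of diet was 0.02 over the receptors, 0.15 over 12 related ligands and partners, 0.10 over 13 genes of processing and activation and 0.07 over 20 genes of signalling and feedback, against -0.01 over all 14233 genes tested. For tumour line the receptor median was 0.32, against 0.0047 over all genes, and 3 of the 13 had an unadjusted p under 0.05, as had 819 or 5.75% of all genes tested. In these lists 0 genes were called in phagocytes or neutrophils for either factor.

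In T cells 1 of 7 related ligands passed for diet, where 76 of 10287 genes or 0.739% did. Lta, which encodes lymphotoxin α, a TNF relative that uses the same receptors, was at 12.4 CPM in HFD_shYap and 4.47 CPM in HFD_WT, against 0.543 CPM in LFD_shYap and 3.41 CPM in LFD_WT. It rose by 2.30 on the log2 scale (SE 0.56, edgeR adjusted p = 0.0376), and the diets did not overlap. Lta was among the leading genes of the CD4 helper sub-cluster, which made up 17.1% and 9.65% of T cells in HFD_shYap and HFD_WT, against 5.51% and 6.13% in LFD_shYap and LFD_WT. Within it Lta had 61, 9, 1 and 1 UMIs in HFD_shYap, HFD_WT, LFD_shYap and LFD_WT. In all other T cells Lta was at 2.44 CPM in HFD_shYap and 2.80 CPM in HFD_WT, against 0.279 CPM in LFD_shYap and 3.02 CPM in LFD_WT, so that the diets overlapped there. For tumour line, where 56 of 10287 genes or 0.544% passed, Il1b, which encodes IL-1β, fell by 1.66 on the log2 scale (SE 0.23, edgeR adjusted p = 5.46e-05), with 16.4 and 11.4 CPM in HFD_shYap and LFD_shYap against 39.6 and 49.2 CPM in HFD_WT and LFD_WT. The NF-κB target Tnfaip2 fell by 1.51 on the log2 scale (SE 0.37, edgeR adjusted p = 0.0447), with 3.35 and 4.07 CPM in HFD_shYap and LFD_shYap against 10.6 and 9.74 CPM in HFD_WT and LFD_WT. Il1b is a myeloid gene, and phagocyte markers in T cells stood at 1806 and 3342 CPM in the shYap libraries against 3283 and 5543 CPM in the WT libraries; their part in these calls was not tested. In the stress list Hspa1b rose with diet in T cells (log2 1.11, SE 0.23, edgeR adjusted p = 0.0073).

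Genes most like each member were ranked by Pearson's r of log2(CPM + 1) over 86 class-by-library and state-by-library sums, which share libraries and cells, among 11562 genes. Nearest to Tnf were Sdcbp at r = 0.87, Vsir at 0.87 and Ccl6 at 0.87. Nearest to Il12b were Bcl2l14 at 0.91, Aldh1a2 at 0.91 and the chemokine gene Ccl22 at 0.91, each highest in mature dendritic cells of one library or another. Nearest to Il10 was Maf at 0.83, which encodes a transcription factor, then Cd38 at 0.78 and Ctsb at 0.77. Nearest to Il6 were Papss2 at 0.78, Flrt3 at 0.67 and Sphk1 at 0.67, also highest in mature dendritic cells. Nearest to Il18 were Mpeg1 at 0.90, Capza2 at 0.90 and Cfp at 0.90, and nearest to Il18bp Sgpl1 at 0.87, Fcho2 at 0.87 and Lgmn at 0.86. Nearest to Tgfb1 were Laptm5 at 0.86, Fermt3 at 0.85 and Fli1 at 0.85. Among the members, r was highest between Tnf and Il18bp at 0.71 and between Il18 and Il18bp at 0.71, and lowest between Il12b and Tgfb1 at -0.26.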

How the data were processed

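The authors deposited raw UMI counts per gene and barcode, 1 matrix per library; Cell Ranger 6.0.0 made them according to the file headers, whereas version 4.0.0, with STAR 2.5.1 and mm10, appears among the submitters' processing notes. How barcodes were chosen for deposit was not stated there. The libraries held 9582, 13870, 11831 and 14779 barcodes with 106268471, 144936859, 127733073 and 125854921 UMIs in HFD_shYap, HFD_WT, LFD_shYap and LFD_WT.

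Barcodes with at least 200 genes and under 15% mitochondrial UMIs were kept. The automatic doublet threshold marked 0, 349, 1 and 0 barcodes and was judged not to have worked, so the highest-scoring barcodes were removed at the rate expected for the number of barcodes, which took out 605, 1356, 942 and 1486. Cells were clustered with scanpy 1.11.5 (2000 variable genes without the members, 30 components, 15 neighbours, Leiden resolution 1, 28 clusters) and named from marker lists. The T lineage was clustered again, and its sub-clusters that were shallow or led by macrophage or neutrophil genes were moved to the unnamed cells. Counts were summed per library and class. CPM is a gene's UMIs scaled by all UMIs of those cells, from 3′ counts, so levels were compared within a gene. Sums of phagocytes, neutrophils and T cells were tested over all genes with edgeR 4.0.16 (quasi-likelihood, TMM, low-count filter, diet and tumour line as additive terms, 1 residual degree of freedom, Benjamini-Hochberg threshold 0.05), checked on simulated data. Single libraries were compared as CPM ratios with exact binomial 95% intervals and a floor of 3 counts. DESeq2 1.42.0 served as an alternative. The members, lists and tests were chosen with earlier results of these data known. The 7 members were always named, the 3 genes most like each by correlation, and listed genes past the threshold together with the receptors.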

Additional observations from a re-analysis of the deposited data

Results flagged for a closer look

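Of 62 pairings of a member and a cell class with both diet ratios, 28 had ratios of opposite sign with the 2 tumour lines, and in 5 of these both counting intervals also lay wholly off 0. Those 5 are given here. The difference was not tested in any of them, since each ratio compares 1 library with 1. Tnf in neutrophils had a log2 ratio of 1.33 (0.79 to 1.90) for HFD_shYap over LFD_shYap and -0.84 (-1.17 to -0.50) for HFD_WT over LFD_WT, a difference of 2.1704. Tgfb1 in neutrophils had 0.84 and -0.47, a difference of 1.3093. Tgfb1 in phagocytes had 0.24 and -0.04, a difference of 0.2754 that rests on the low level in LFD_shYap.

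Il12b in dendritic type 2 cells had 124 UMIs in HFD_shYap and 42 in HFD_WT, against 0 in LFD_shYap and 78 in LFD_WT. With the 0 of LFD_shYap set to the floor of 3 counts, the log2 ratio with shYap tumours was 4.50, a value that depends on this floor. The ratio with WT tumours was -1.78, a difference of 6.2732, and the 124 UMIs came from 3 cells. Il6 in mature dendritic cells had 39 UMIs in HFD_shYap and 13 in HFD_WT, against 2 in LFD_shYap and 18 in LFD_WT. With the count of 2 set to 3 its ratios were 1.40 and -1.42, a difference of 2.8212, and the measured first ratio was 1.99 (0.04 to 5.09).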

How the results depend on the processing

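The number of genes called moved by over 1.5 times in 56 comparisons of a setting with the main one and less in 28, so these counts depend on the processing; the cause was not tested. Of the refitted values of members, 388 had the direction and side of the threshold of the main setting, 8 passed the threshold anew and 52 changed sign. As 0 members passed in the main setting, a kept side says nothing of stability. Fits without 1 library use the factor alone and assume that a lone library varies like the others. The states called skewed drew over 60% of their cells from 1 library, a limit chosen after seeing the data, as were the fits with all T sub-clusters and without the Camp/Ngp cluster, and the levels without the top cell or without CD4 helper cells. The planned limit of 75%, applied at Leiden resolution 1, left out no cluster and gave no value. At resolution 2 a cluster led by Fbxo32 and Jaml drew 1031 of its 1149 cells from LFD_shYap. Another, with Ifnb1, Ccl4 and Fbxo32 among its leading genes, drew 338 of 349 from that library. No fit left these out by themselves. No paired analysis was possible because each group has only replicate 1.

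For diet in phagocytes, 25 genes were called, against 161 with DESeq2, 191 with no filter, 1 when LFD_shYap took the diet in its treatment field (the treatment-field diet), 140 with doublets kept, 76 with Xist-bearing and 82 with Y-bearing cells of HFD_shYap, 150 without the skewed states, and 6 (without HFD_shYap) to 371 (without LFD_WT) leaving out 1 library. For tumour line in phagocytes, 6 were called, against 28 with DESeq2, 53 with no filter, 1 with the factor alone, 3 with the treatment-field diet, 19 with Xist-bearing cells, 38 without the skewed states, and 0 (without HFD_shYap) to 6 leaving out 1 library. For diet in neutrophils, 26 were called, against 16 with DESeq2, 163 with no filter, 0 with the factor alone, 1 with the treatment-field diet, 0 with doublets kept, 145 under 10% mitochondrial UMIs, 73 with Xist-bearing cells, 0 with Y-bearing cells, 0 without the Camp/Ngp cluster, and 0 (without HFD_WT) to 187 (without LFD_WT) leaving out 1 library. For tumour line in neutrophils, 0 were called, against 48 with no filter, 32 under 10% mitochondrial UMIs, 47 with Xist-bearing cells, and 15 (without LFD_WT) to 180 (without HFD_shYap). For diet in T cells, 76 were called, against 11 with DESeq2, 117 with no filter, 5 with the factor alone, 23 with the treatment-field diet, 190 with doublets kept, 139 with Xist-bearing cells, 186 with all T sub-clusters, and 6 (without HFD_shYap) to 103 (without LFD_shYap). For tumour line in T cells, 56 were called, against 7 with DESeq2, 92 with no filter, 0 with the factor alone, 6 with the treatment-field diet, 114 with doublets kept, 109 with Xist-bearing cells, and 3 (without HFD_shYap) to 61 (without HFD_WT).

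In phagocytes the diet fold change (log2) of Tnf was -0.93 with DESeq2, -0.92 with no filter, -0.91 with doublets kept and -1.07 with Y-bearing cells, all now past the threshold, and -1.06 to -0.79 leaving out 1 library. That of Tgfb1 was -0.0070 with Xist-bearing cells and -0.0265 to 0.14 leaving out 1 library. That of Il6 was -0.0853 with Y-bearing cells and -0.0518 without the skewed states. Leaving out 1 library gave -0.80 to -0.36 for Il10 and -0.0728 to 0.55 for Il18bp. With states weighted equally, Il10 in HFD_WT over LFD_WT was 0.083, against -0.40 pooled. For tumour line in phagocytes, Tnf was -0.0141 with Y-bearing cells and -0.36 to 0.71 leaving out 1 library, and Il6 was -0.23 and -0.0861 to 0.59. Leaving out 1 library gave -1.13 to 0.17 for Il12b, -0.23 to 0.60 for Il10 and -0.48 to 0.0638 for Il18.

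In neutrophils the diet fold change of Tnf was -0.0187 with the factor alone, -0.68 with the treatment-field diet, -0.11 with Xist-bearing cells and -0.61 to 1.04 leaving out 1 library. That of Tgfb1 was -0.32 with the treatment-field diet, -0.0889 with Xist-bearing cells and -0.30 to 0.60 leaving out 1 library, and that of Il18 was 0.0365 with Y-bearing cells and -0.86 to 0.997 leaving out 1 library. The tumour line fold change of Il18bp was -0.0749 to 0.20 leaving out 1 library.

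In T cells the diet fold change of Tnf was 0.0103 with no filter, -0.95 with doublets kept and -0.50 to 0.43 leaving out 1 library. That of Il18 was 0.0338 with the treatment-field diet and -0.72 to 0.46 leaving out 1 library. That of Il18bp was -0.37 with the treatment-field diet, -0.0206 with doublets kept, -0.071 with Y-bearing cells, -0.33 with all T sub-clusters and -0.12 to 0.55 leaving out 1 library. For tumour line, Il18bp was -0.089 with DESeq2, -0.0256 with Xist-bearing cells, -0.33 with Y-bearing cells, -0.21 with all T sub-clusters and -0.44 to 0.29 leaving out 1 library. Tnf was 0.0424 with the treatment-field diet, 0.12 with doublets kept and -0.59 to 0.0432 leaving out 1 library. Il10 was -0.0792 with the treatment-field diet, -0.20 with doublets kept and -0.0774 to 2.40 leaving out 1 library. Tgfb1 was -0.0948 with the treatment-field diet, -0.0027 with Y-bearing cells and -0.11 to 0.20 leaving out 1 library.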
